A study of Homo sapiens with 44 samples.

Results

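IRF2BP2 (interferon regulatory factor 2 binding protein 2) was immunoprecipitated from chromatin of HEK293-GR cells, and 1400 peaks were listed for cells given dexamethasone (dex) and 1108 for cells given vehicle. The regions described here are the 916 peaks of the dex list that share no base with any peak of the vehicle list, called dex-only peaks. The other 484 dex peaks overlapped a vehicle peak, and 624 vehicle peaks overlapped no dex peak, so the dex-only peaks made up 916 of 2508 peaks in all. The members were chosen by the positions of peaks in the 2 lists alone, so the presence of these peaks with dex and their absence without it is a description and carries no test.

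HEK293-GR cells are an isogenic line made from Flp-In 293 human embryonic kidney cells that constitutively expresses the glucocorticoid receptor (GR) from an introduced gene. For chromatin immunoprecipitation the cells were kept in steroid-depleted medium for 48 h and given ethanol vehicle or 100 nM dex for 1 h, with 2 replicates per condition and 1 deposited peak list per condition, so no peak has a replicate check. RNA was sequenced after transfection with 20 nM of a non-targeting siRNA pool (siNON) or of a pool against IRF2BP2 (siIRF2BP2), 72 h in steroid-depleted medium, and 6 h of vehicle or 100 nM dex, in HEK293-GR and in A549, a human lung carcinoma line that has its own GR and was also given 10 ng/ml tumor necrosis factor (TNF) alone or with dex. The HEK293-GR values used here are 3 libraries in each of 4 groups, of 4 labelled per group, and 4 labelled samples were not analysed here. The A549 values are the authors' pooled columns and their own comparisons.

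GR is a nuclear receptor that enters the nucleus and binds DNA when a glucocorticoid such as dex occupies it. Much of its binding lies in enhancers away from promoters, and its classic induced genes include FKBP5, PER1, DUSP1 and KLF15. IRF2BP2 is a nuclear coregulator with a zinc finger and a RING domain; it was first known as a partner of interferon regulatory factor 2 and is recruited to DNA through other transcription factors.

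Dex-only peaks mostly lay outside promoters, and 13 of 916 (1.42%) touched the window from 250 bases upstream to 50 bases downstream of a transcription start site (TSS). Of the 13 genes, 10 had enough reads to be tested in HEK293-GR, and 7 of the 10 rose with dex under siNON while none fell, beside 10.9% higher and 9.82% lower of all 15593 genes tested (limma, Benjamini-Hochberg adjusted p under 0.05). The 7 were TMEM91, GREB1, LINC00886, SLC19A2, KLF7, SLC25A45 and PHACTR4. The 250 bases upstream of the start are shown for 5 of them. In each, a dex-only peak touched the promoter window of a gene that rose with dex. The peak at LINC00886 did not reach the start itself. The sequences are RefSeq promoters of build GRCh38.p14, while the peaks are on hg19, and no hg19 sequence was used. Of the 13 genes, 10 have an entry in the promoter table, and for 7 the start lay within 10 bases of the hg19 start when both were measured from the 3′ end of the gene. Capitals mark every match, on either strand, to a motif searched.
TMEM91: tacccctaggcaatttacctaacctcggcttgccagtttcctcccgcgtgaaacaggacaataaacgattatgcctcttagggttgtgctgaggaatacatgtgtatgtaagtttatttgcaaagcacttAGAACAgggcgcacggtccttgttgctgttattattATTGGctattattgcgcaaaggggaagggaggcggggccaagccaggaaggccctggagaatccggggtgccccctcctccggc
SLC19A2: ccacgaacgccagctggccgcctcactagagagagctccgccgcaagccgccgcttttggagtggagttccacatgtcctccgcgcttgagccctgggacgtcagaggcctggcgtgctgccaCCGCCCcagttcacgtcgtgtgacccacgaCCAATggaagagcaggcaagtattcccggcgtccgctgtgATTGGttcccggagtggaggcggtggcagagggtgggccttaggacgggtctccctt
LINC00886: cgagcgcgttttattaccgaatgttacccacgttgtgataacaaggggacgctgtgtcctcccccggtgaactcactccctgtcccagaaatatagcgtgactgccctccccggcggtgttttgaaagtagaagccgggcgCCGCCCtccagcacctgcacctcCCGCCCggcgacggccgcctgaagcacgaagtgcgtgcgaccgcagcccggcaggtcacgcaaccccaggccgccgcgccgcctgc
KLF7: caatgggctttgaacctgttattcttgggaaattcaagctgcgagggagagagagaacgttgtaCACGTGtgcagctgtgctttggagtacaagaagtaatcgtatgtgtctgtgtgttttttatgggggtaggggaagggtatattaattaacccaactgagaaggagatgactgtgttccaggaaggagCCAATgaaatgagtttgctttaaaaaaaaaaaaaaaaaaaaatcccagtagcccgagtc
PHACTR4: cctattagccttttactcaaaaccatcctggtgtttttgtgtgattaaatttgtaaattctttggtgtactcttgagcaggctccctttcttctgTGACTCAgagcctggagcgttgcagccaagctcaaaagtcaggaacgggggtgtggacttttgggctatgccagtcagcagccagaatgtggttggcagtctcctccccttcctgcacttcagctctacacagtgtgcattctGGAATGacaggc
TMEM91 encodes a membrane protein, SLC19A2 a thiamine transporter, KLF7 a Krüppel-like zinc finger factor and PHACTR4 a regulator of protein phosphatase and actin, and LINC00886 is a long non-coding RNA. In hg19 the peaks covered 250 of these 250 bases at TMEM91 (chr19:41882171-41882502), 203 at LINC00886 (chr3:156534899-156535230), 145 at KLF7 (chr2:207998675-207999006), 137 at SLC19A2 (chr1:169455014-169455345) and 83 at PHACTR4 (chr1:28764578-28764909).

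The motif searches used the letters as written and their reverse complement. The full glucocorticoid response element (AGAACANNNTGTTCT) matched none of the 7 promoters, and neither did the form with free outer bases (NGNACANNNTGTNCN), which matched 0.327% of all 35116 promoters of the table. Its single arm AGAACA, which is part of the full element, was found once, 120 bases upstream of TMEM91, and 12.4% of all promoters hold it. The NF-Y letters CCAAT were found at TMEM91, SLC19A2 and KLF7 among the sequences shown, against 32.0% of all promoters. SLC19A2 and LINC00886 held the SP1 and KLF letters GGGCGG (42.6% of all promoters), and KLF7 held the E-box CACGTG (6.34%). PHACTR4 held the AP-1 letters TGANTCA (6.57%) and the TEAD letters GGAATG (11.9%). By position, the AP-1 match at PHACTR4 (155 bases upstream) and the E-box at KLF7 (186 bases upstream) lay outside the part under the peak. The peaks at these genes covered only the 83 and 145 bases next to the start. None of the 5 sequences held the ETS letters CCGGAAG (8.52%), the CRE letters TGACGTCA (1.65%), the interferon-stimulated letters GAAANNGAAA (3.02%), the NF-kB letters GGGNNTTTCC (1.73%) or the forkhead letters TGTTTAC (2.98%). These are matches of letters in a short window, and no binding site was measured from them.

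Dex-only peaks lay at a median of 39.5 kb from the nearest TSS, with the middle 50% between 14.2 and 84.5 kb and the farthest at 684 kb. The median was 32.1 kb for peaks found in both lists and 43.9 kb for vehicle-only peaks. Within 1 kb of a TSS lay 27 of 916 dex-only peaks (2.95%), 42 of 484 peaks of both lists (8.68%) and 49 of 624 vehicle-only peaks (7.85%). Promoter windows were touched by 7.23% of peaks in both lists and by 4.65% of vehicle-only peaks, beside the 1.42% given above. Within 10 kb of a TSS lay 170 dex-only peaks (18.6%), and within 100 kb lay 723 (78.9%). A gene body held 546 dex-only peaks (59.6%), against 53.3% of peaks in both lists and 55.8% of vehicle-only peaks, and 40.6% of dex-only peaks were upstream of their nearest TSS. These shares come from 1 list per condition and have no replicate error.

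**Figure D1:**
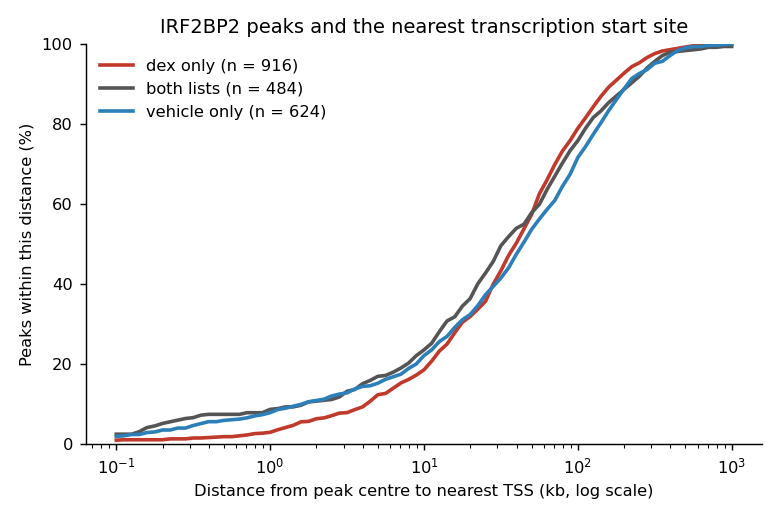
Percent of IRF2BP2 peaks whose centre lies within a given distance of the nearest TSS (kb, log scale), for the 916 dex-only peaks, the 484 dex peaks that overlap a vehicle peak and the 624 vehicle-only peaks. At 1 kb the dex-only line stands at 2.95%, below 8.68% and 7.85%, and at 100 kb it stands at 78.93%, above 75.83% and 71.63%.

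The values that chose the members were the gaps between the lists. The 5 dex-only peaks closest to a vehicle peak were 9, 42, 206, 254 and 432 bases away from it, 11 were within 2 kb and 35 within 10 kb, and the median gap was 575 kb. On the other side of the rule, the smallest overlaps among the peaks of both lists were 43, 74, 105, 114 and 128 bases, and the median overlap was 303 bases of a 332-base peak. All dex peaks are 332 bases wide and all vehicle peaks 343.

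The dex-only share rose along the deposited dex list. Dex-only peaks were 73 of the first 200 places (36.5%) and 170 of the last 200 (85.0%), with 51.0, 63.0, 69.5, 74.5 and 78.5% in the blocks between. The first dex-only peak stood at place 10, 126.0 kb downstream of the start of RHOU, and the median place was 823, against 448.5 for the peaks of both lists. The files do not say what the order stands for, so the places are given as found. The dex list is also the longer one and its peak names run to number 6451 on chromosome 1, where those of the vehicle list reach 640. The part of this gap between the lists in the number of dex-only peaks was not tested.

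**Figure D2:**
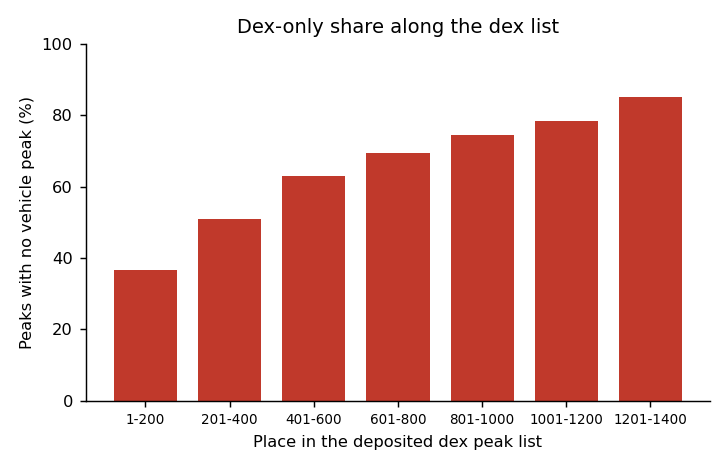
Percent of peaks with no overlapping vehicle peak in each block of 200 places of the deposited dex list. The share is 36.5% in the first block and 85.0% in the last, and each block stands above the one before it.

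Dex-only peaks were found on 23 chromosomes. Chromosome 1 held most of them, 89, and chromosome 21 fewest, 10. On chromosome X 15 of the dex peaks (36.6%) were dex-only, the lowest share, and on chromosome 18 the share was highest, at 25 peaks (89.3%). Another dex-only peak lay within 100 kb for 198 of the 916 (21.6%), and within 10 kb for 16.

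The nearest TSS belonged to 807 genes, of which 635 were protein-coding and 161 non-coding. A single dex-only peak was nearest to 712 of the genes, at least 2 to 95 and at least 3 to 9. AUTS2, a neurodevelopmental gene, had 5, all inside the gene and between 203.6 and 499.3 kb from its start. EFNA5 (an ephrin ligand), FOXP1 (a forkhead repressor) and RHOU (an atypical small GTPase) had 4 each. FOXO3 (a forkhead factor of the insulin pathway), QKI (an RNA-binding protein), SORBS2 (a cytoskeletal adaptor), ZNF608 and the antisense RNA HLX-AS1 had 3 each. The 4 peaks of RHOU lay downstream of its start at 70.2, 103.5, 126.0 and 168.1 kb, at places 151, 238, 10 and 91 of the dex list. Most of the 807 genes, 661 (81.9%), were nearest to no other kind of peak, while 74 were also nearest to a peak of both lists and 93 to a vehicle-only peak.

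Before the expression results, the libraries were checked. The 12 HEK293-GR libraries held 18245938 to 28545491 tags, which limits precision for genes of a few reads. Libraries of a group came from samples whose labels do not name separate cultures, so p-values measure the spread between these samples. In bulk RNA, fewer cells of a kind and less RNA per cell cannot be told apart. IRF2BP2 stood at 23.4, 25.0 and 20.3 FPKM (fragments scaled by transcript length and library depth) with siNON and vehicle, and at 12.6, 11.8 and 13.7 with siIRF2BP2 and vehicle, a log2 difference of -0.84 ± 0.08 (SE, limma adjusted p = 1.87e-05). With dex it stood at 20.6, 20.0 and 19.3 against 9.64, 11.1 and 10.4, and both knockdown groups lay below both siNON groups without reaching 0. NR3C1, the gene of GR, ranged from 28.8 to 39.8 FPKM over all libraries. Of 10 HEK293 marker genes 9 averaged at least 1 FPKM, against 1 of 8 A549 markers and 3 of 8 markers of blood, endothelial and stromal cells, of which 2 were below 0.1 FPKM in every library.

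Many genes near dex-only peaks were higher with dex. Of the 807 genes, 586 passed the filter of 10 reads in 3 libraries, and 221 did not and are not in the counts below. A group has 3 libraries, so a gene could pass through the group where it was high, as IGFBP1 did. Under siNON 159 of the 586 (27.1%) rose with dex and 85 (14.5%) fell, beside 10.9% that rose and 9.82% that fell of all 15593 genes tested (limma, adjusted p under 0.05). Where the closest dex-only peak was within 10 kb of the TSS, 60 of 127 genes rose (47.2%) and 6 fell (4.72%), and the median log2 change was 0.27, beside 0.02 over all genes tested. At 10 to 50 kb 61 of 245 rose and 37 fell, at 50 to 100 kb 22 of 124 rose and 23 fell, and past 100 kb 16 of 90 rose and 19 fell. Among the genes within 1 kb, 11 of 21 rose and 1 fell.

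**Figure D3:**
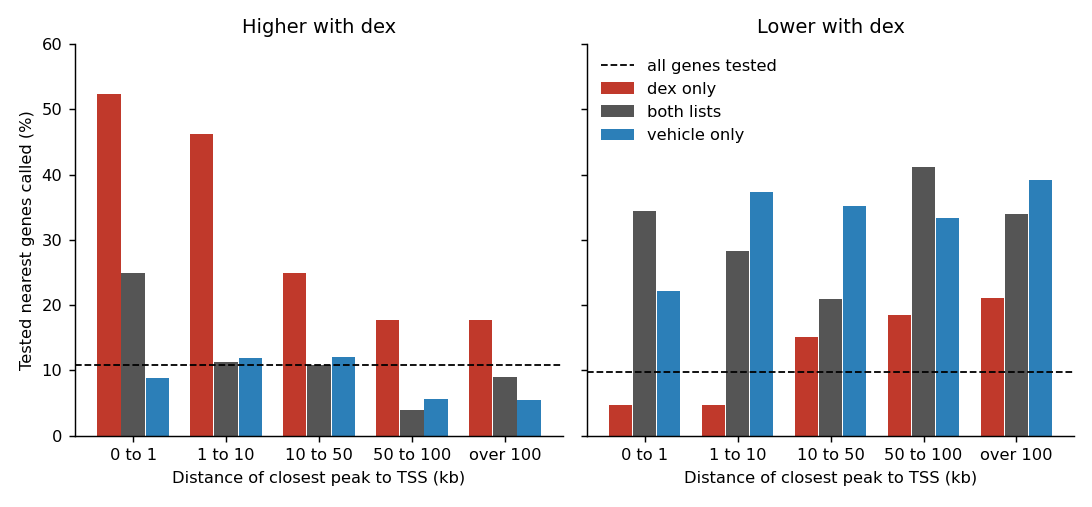
Percent of tested nearest genes that were higher (left) or lower (right) with dex under siNON in HEK293-GR, by the distance of the closest peak to the TSS (kb), for the 3 kinds of peak. The dashed line is the percent of all 15593 genes tested. Dex-only bars in the left panel fall from 52.4% within 1 kb to 17.8% past 100 kb.

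The other peaks had a different count, given as a description with no test. Of 302 tested genes nearest to peaks of both lists 33 rose (10.9%) and 89 fell (29.5%), and of 393 nearest to vehicle-only peaks 35 rose (8.91%) and 136 fell (34.6%). Genes can be in more than 1 of these sets. Of the tested genes near dex-only peaks and no other kind, 139 of 475 rose (29.3%) and 49 fell (10.3%). Where the gene was also nearest to a peak of both lists, 9 of 59 rose and 22 fell, and where it was also nearest to a vehicle-only peak, 12 of 72 rose and 26 fell. By place in the dex list, 28.5% of genes were higher for the first 400 places, 28.0% for the next 400 and 26.7% for the rest. Peaks inside their own nearest gene had 107 of 316 genes higher (33.9%), peaks outside genes 51 of 233 (21.9%), and peaks inside another gene 6 of 62 (9.68%). Median distances to the TSS in these 3 groups were 29.8, 46.7 and 58.1 kb.

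Classic GR targets were among the members, which were 586 of all 15593 genes tested. Of a list of 45 GR-induced genes, 13 (28.9%) were nearest to a dex-only peak, and 12 of those 13 rose with dex under siNON and none fell, with a median log2 change of 1.29. The 42 tested genes of the whole list had a median of 1.06, with 34 higher and 1 lower. IGFBP1, among the 12, had no read with vehicle and passed the read filter through its dex libraries alone. Its direction with dex was thereby fixed, and it also counts among the rises given above. The list was chosen with results of these data known and is no independent evidence of its direction.

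PDK4, a kinase that shuts pyruvate dehydrogenase and spares glucose, had 2 dex-only peaks, at 0.6 and 12.6 kb upstream of its start, the closer one at chr7:95226397-95226728. It measured 1.54, 2.06 and 1.93 FPKM with siNON and vehicle, 40.7, 40.0 and 38.7 with siNON and dex, 1.51, 1.81 and 1.30 with siIRF2BP2 and vehicle, and 36.5, 38.8 and 31.5 with siIRF2BP2 and dex. The dex libraries stood far above the vehicle libraries under both siRNAs. The change with siNON was 4.37 ± 0.12 (log2, SE, limma adjusted p = 3.32e-13), the largest fitted on the log2(FPKM + 0.1) scale among the genes named here, and with siIRF2BP2 it was 4.45 (adjusted p = 8.05e-13).

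PER1, a repressor of the circadian clock, had a dex-only peak 2.1 kb upstream at chr17:8057660-8057991, place 109 of the list. Its levels were 9.97, 8.30 and 6.86 FPKM with siNON and vehicle and 49.9, 50.5 and 51.1 with dex, and 9.84, 8.64 and 10.9 against 45.2, 49.3 and 41.5 with siIRF2BP2. Vehicle and dex libraries did not overlap. The log2 change was 2.59 ± 0.11 with siNON (limma adjusted p = 6.56e-11) and 2.20 with siIRF2BP2.

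FKBP5, the GR co-chaperone that lowers ligand affinity in a feedback loop, had a dex-only peak 13.0 kb inside the gene at chr6:35683213-35683544. It stood at 22.2, 23.3 and 22.3 FPKM with siNON and vehicle and at 56.2, 54.6 and 54.6 with dex, and at 22.1, 21.1 and 24.5 against 53.0, 55.8 and 45.0 with siIRF2BP2. The groups with dex lay above those without, and the 2 siRNAs overlapped within each treatment. The changes were 1.29 ± 0.08 and 1.18 on the log2 scale (limma adjusted p = 8.12e-09 and 3.29e-08).

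KLF15, a metabolic zinc finger factor, had a peak 1.4 kb downstream of its start and rose from 7.13, 6.59 and 7.37 FPKM to 20.5, 21.5 and 21.2 with siNON, a log2 change of 1.57 ± 0.08 (limma adjusted p = 4.43e-10). DUSP1, a phosphatase that switches off MAP kinases, had 2 peaks, 1.3 kb upstream and 4.6 kb downstream of its start, and went from 15.7, 14.4 and 13.5 FPKM to 29.2, 31.9 and 27.4, a change of 1.02 (adjusted p = 2.78e-07). ERRFI1, an inhibitor of the EGF receptor, had a peak 44.7 kb upstream and went from 9.93, 9.04 and 9.64 FPKM to 17.4, 16.8 and 17.1, a change of 0.84. In these 3 genes the dex libraries lay above all vehicle libraries. IGFBP1, a binding protein for insulin-like growth factors, had a peak 1.2 kb from its start and was listed at 0 in all 6 vehicle libraries, against 0.42, 0.462 and 0.377 FPKM with siNON and dex and 0.413, 0.367 and 0.256 with siIRF2BP2 and dex. Over the 3 libraries of each group that was 0 reads against 43 with siNON and 0 against 37 with siIRF2BP2, so against a floor of 3 reads per group its level was at least 14.5-fold and at least 12.8-fold higher with dex. The list's median is 1.29 with IGFBP1 at that bound too.

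TFCP2L1 (0.83), ZBTB16 (1.05), SLC19A2 (0.69), BIRC3 (1.78) and CEBPD (2.98) also rose with siNON (log2 changes, limma adjusted p at most 2.51e-05). BIRC3, an inhibitor of cell death that NF-kB also induces, had a peak 11.0 kb upstream. CEBPD, a leucine zipper factor, is on the list through a peak 212 kb from its start that lies inside SPIDR, so the nearest start is a weak guide there. GADD45B, a stress sensor, measured 15.5, 12.5 and 13.0 FPKM with vehicle and 15.4, 16.0 and 15.8 with dex, groups that overlapped, and its change of 0.21 did not pass (limma adjusted p = 0.098).

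**Figure D4:**
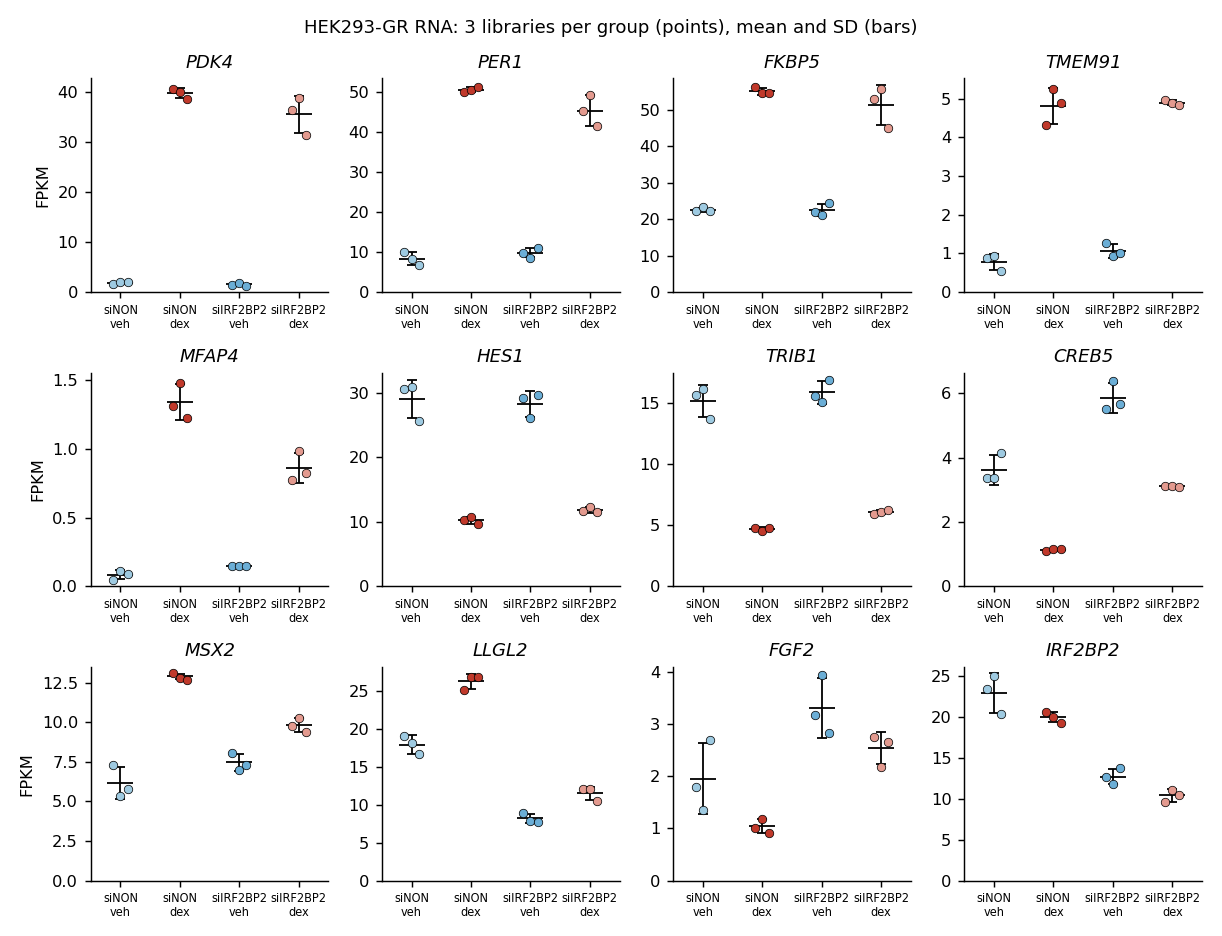
FPKM of 11 genes nearest to a dex-only peak, and of IRF2BP2, in the 12 HEK293-GR libraries. Points are libraries, horizontal bars the mean of 3 and vertical bars the SD. PDK4, PER1, FKBP5 and TMEM91 are high in both dex groups, and HES1 and TRIB1 are low in both. CREB5 is lower with dex under both siRNAs and higher with siIRF2BP2 under both treatments.

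Genes outside the GR list rose as well. Those named here are the largest rises, picked with no overlap between the siNON libraries required, so that lack of overlap is no added evidence. TMEM91, whose start is covered by the peak shown above, measured 0.873, 0.943 and 0.552 FPKM with siNON and vehicle and 4.33, 5.26 and 4.89 with dex, and 1.28, 0.929 and 1.01 against 4.97, 4.90 and 4.83 with siIRF2BP2. Its dex and vehicle libraries did not overlap, and the log2 change with siNON was 2.49 ± 0.17 (limma adjusted p = 1.25e-08). MFAP4, a protein of microfibrils in the matrix, went from 0.046, 0.109 and 0.093 FPKM to 1.31, 1.48 and 1.22 with siNON, with a peak 11.2 kb upstream. HELZ2, a helicase that works with nuclear receptors, went from 2.35, 2.58 and 1.83 FPKM to 12.1, 12.1 and 11.8, with a peak 1.6 kb upstream. Both genes had dex libraries above every vehicle library, and the changes were 2.99 ± 0.17 and 2.37 ± 0.16 (limma adjusted p = 1.85e-09 and 1.23e-08).

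CNKSR3, a scaffold in epithelial sodium transport, rose by 2.19, GPR64, an adhesion receptor now called ADGRG2, by 2.17, and GAS2L1, a linker of actin and microtubules, by 2.06. FAM65B, which regulates the actin cytoskeleton, rose by 1.90 (log2 changes with siNON, limma adjusted p at most 1.18e-07). The closest dex-only peaks were 28.8 kb inside CNKSR3, 5.2 kb upstream of GPR64 and 0.4 kb upstream of GAS2L1. That of FAM65B lay 25.2 kb upstream of the nearest start of the gene but inside a longer transcript of it.

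Genes near dex-only peaks also fell with dex. The falls named were picked in the same way, so their lack of overlap is no added evidence either. HES1, a Notch-driven repressor, had a peak 55.1 kb upstream and measured 30.5, 30.9 and 25.6 FPKM with siNON and vehicle against 10.2, 10.7 and 9.70 with dex, and 29.2, 26.0 and 29.6 against 11.6, 12.3 and 11.5 with siIRF2BP2. Every dex library was below every vehicle library. The log2 change was -1.49 ± 0.08 with siNON and -1.25 with siIRF2BP2 (limma adjusted p = 1.08e-09 and 1.47e-08).

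TRIB1, a pseudokinase that brings proteins to the COP1 ubiquitin ligase, had its peak 96.1 kb upstream, inside NSMCE2. It went from 15.7, 16.2 and 13.7 FPKM to 4.79, 4.51 and 4.82 with siNON and from 15.6, 15.1 and 16.9 to 5.92, 6.12 and 6.27 with siIRF2BP2. Its dex libraries were below all vehicle libraries with both siRNAs, with log2 changes of -1.67 ± 0.08 and -1.36 (limma adjusted p = 2.01e-10 and 3.55e-09).

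The homeobox gene MEOX1 (log2 change -2.31, peak at 8.4 kb), the leucine zipper factor CREB5 (-1.58, 99.4 kb), the helix-loop-helix factor EBF2 (-1.34, 51.3 kb), the eye and limb regulator DACH1 (-1.32, 69.5 kb) and SCHIP1 (-1.25, 15.4 kb) fell with siNON. SCHIP1 overlaps the longer IQCJ-SCHIP1 unit, whose reads could not be told apart here. SEMA3D, a semaphorin guidance cue (-1.18, 84.9 kb), PRTG, a receptor of the immunoglobulin superfamily (-1.15, 82.5 kb), and BMF, a cell death activator (-1.15, 2.8 kb), fell as well. All 8 had adjusted p of at most 0.00381 by limma. Of the 10 falls named here MEOX1 and BMF had a dex-only peak within 10 kb, as did 6 of the 10 largest rises by the same rule (PDK4, PER1, TMEM91, HELZ2, GPR64 and GAS2L1), beside 21.7% of all tested members.

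Genes with the most dex-only peaks moved in both directions. RHOU rose from 9.63, 10.3 and 11.3 FPKM to 18.4, 17.8 and 17.3 with siNON, groups that did not overlap, a log2 change of 0.77 ± 0.07 (limma adjusted p = 8.99e-07). FOXO3 rose by 0.38 (adjusted p = 0.00581) and SORBS2 by 0.35 (adjusted p = 0.0252, and 0.0594 without siNON vehicle replicate 1). ZNF608 fell, from 6.66, 7.51 and 7.03 FPKM to 3.32, 3.26 and 3.14, a change of -1.10 ± 0.09 (adjusted p = 7.99e-08). AUTS2 (-0.56), FOXP1 (-0.59) and EFNA5 (-0.42) fell too, with adjusted p of 6.75e-04, 1.25e-04 and 0.00914 by limma, the last becoming 0.0503 without siNON dex replicate 2. QKI changed by -0.19 and did not pass (adjusted p = 0.13), and HLX-AS1 had too few reads to test. Among genes with 2 or more dex-only peaks 25 of 79 tested rose and 17 fell, and among those with 1 peak 134 of 507 rose and 68 fell.

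Other lists also held members, beside 586 of all 15593 genes tested. Of 19 clock genes PER1, NR1D2 and RORA were nearest to a dex-only peak: PER1 rose, NR1D2, a nuclear receptor that represses clock genes, fell with dex under siNON (log2 change -0.75, limma adjusted p = 1.18e-04), and RORA, which activates them, changed by -0.73 without passing (adjusted p = 0.0713). Of 28 YAP and TEAD targets 4 were members, and FJX1 (-0.57) and SLIT2 (-0.45) fell with dex while DOCK5 and PTPN14 did not pass. Of 25 TNF and NF-kB genes BIRC3 and CCL20 were members, and CCL20, a chemokine with a peak 4509 bases downstream of its start, had too few reads in HEK293-GR. Of 26 cholesterol synthesis genes SC5D alone was a member and did not pass with dex, and none of 21 genes of protein folding and amino acid stress was.

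With IRF2BP2 knocked down, 123 genes near dex-only peaks rose with dex. Of the 586 tested genes these were 21.0%, and 56 (9.56%) fell under siIRF2BP2, beside 5.86 and 4.59% of all genes. Within 10 kb 49 of 127 rose and 3 fell. The genes higher under both siRNAs numbered 112, which is 70.4% of those higher with siNON and 91.1% of those higher with siIRF2BP2, beside 47.1 and 87.9% over all genes tested. The genes lower under both numbered 48, which is 56.5 and 85.7%, beside 37.4 and 80.0% over all genes. The 2 responses use separate libraries.

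The difference between the responses, the log2 change with siIRF2BP2 minus that with siNON, was tested directly. It passed for none of the 586 genes (limma, adjusted over all genes). Of all genes 0.0% passed with a difference above 0 and 0.0128% with one below 0, 2 genes of 15593. Without adjustment 45 of the 586 had limma p under 0.05, which is 7.68%, beside 5.16% of all genes. Of the 45, 16 had a difference below 0, beside 343 of 805. A difference below 0 is a smaller rise or a deeper fall. The median difference over the members, rises and falls together, was 0.005 on the log2 scale, and -0.026 within 10 kb. Of the 159 members called higher with siNON, 124 (78.0%) had a smaller rise with siIRF2BP2, beside 87.3% of all genes so called. Of the 85 called lower, 72 (84.7%) had a smaller fall, beside 83.8%. These genes were picked by their siNON values, so a smaller second value is a description with no test. A difference that misses the threshold does not show that the responses are alike.

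**Figure D5:**
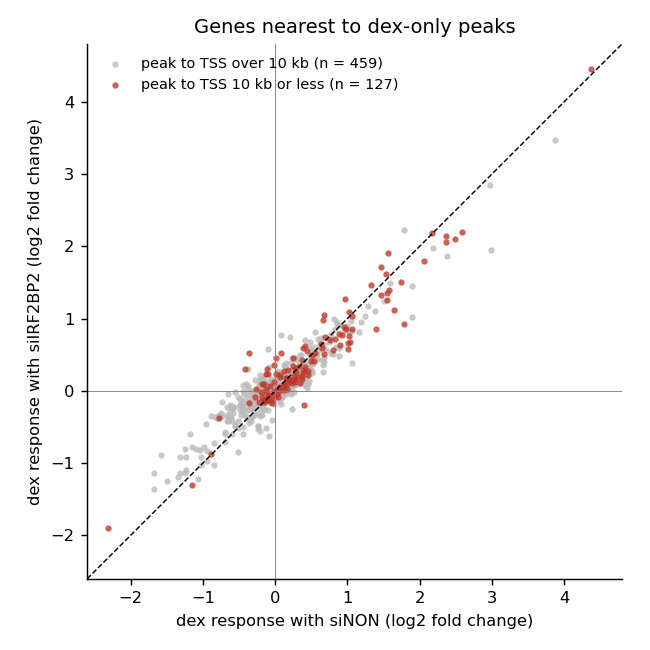
Log2 fold change with dex under siNON (x axis) and under siIRF2BP2 (y axis) for the 586 tested genes nearest to a dex-only peak, 127 of them with the peak within 10 kb of the TSS in red. The dashed line marks equal responses. Of the 159 genes called higher with siNON 124 had a smaller rise with siIRF2BP2, and of the 85 called lower 72 had a smaller fall.

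MSX2, CREB5, MFAP4, FAM65B and FILIP1 had the smallest p for that difference among members within 100 kb. MSX2, a homeobox factor of bone and limb, measured 7.33, 5.36 and 5.78 FPKM with vehicle and 13.1, 12.8 and 12.7 with dex under siNON, and 8.07, 6.97 and 7.32 against 9.79, 10.3 and 9.41 under siIRF2BP2. With knockdown its dex libraries lay below the siNON dex libraries, and the difference of the log2 changes was -0.67 ± 0.14 (limma adjusted p = 0.246, and 0.0185 without siNON vehicle replicate 1). For FAM65B it was -0.88 (adjusted p = 0.385, and 0.0269 with a pseudocount of 1), for MFAP4 -1.04 (0.317), for FILIP1, a filamin-binding protein, 0.88 (0.555) and for CREB5 0.69 (0.302).

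Knockdown moved members in both directions. Under vehicle 69 of 586 (11.8%) were higher and 38 (6.48%) lower with siIRF2BP2, beside 8.0 and 7.48% of all genes. These 2 counts depended on single libraries: leaving out siNON vehicle replicate 1 gave 34 higher, siIRF2BP2 vehicle replicates 2 and 3 gave 36 and 43, and siNON vehicle replicate 3 gave 129. For genes lower, leaving out siNON vehicle replicate 2 gave 18, siIRF2BP2 vehicle replicate 2 gave 20 and siNON vehicle replicate 3 gave 64. A fit of the 2 vehicle groups alone called 10 higher and 12 lower. Under dex 167 (28.5%) were higher and 82 (14.0%) lower, beside 22.4 and 17.3% of all genes, and the first count was 111 without siNON dex replicate 3. Within 10 kb 9 were higher and 11 lower under vehicle, and 30 higher and 23 lower under dex, of 127. Of tested genes near peaks of both lists, 17.9% were higher and 5.3% lower under vehicle, and 34.1 and 13.9% under dex. Near vehicle-only peaks these shares were 13.2 and 6.11%, and 34.1 and 8.91%. The shares higher with knockdown were thus larger there than near dex-only peaks. The knockdown and dex comparisons share libraries, so their values are given side by side. The largest knockdown changes named next were also picked with no overlap between the libraries compared, so that lack of overlap is no added evidence.

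LLGL2, a cell polarity protein with a dex-only peak 23.9 kb inside the gene, was lower with knockdown in every library. It stood at 19.0, 18.1 and 16.6 FPKM with siNON and 8.91, 7.88 and 7.73 with siIRF2BP2 under vehicle, and at 25.1, 26.8 and 26.8 against 12, 12 and 10.5 under dex. The log2 changes were -1.12 and -1.18 ± 0.08 (limma adjusted p = 1.05e-06 and 2.89e-07). PXDN, a matrix peroxidase (-0.87), PITPNM2, a phosphatidylinositol transfer protein (-0.77), NKX2-2, a homeobox factor (-0.77), and SKI, a repressor of SMAD signalling (-0.74), were the other lower genes named under vehicle, with adjusted p of at most 0.00673 by limma, that of PITPNM2 becoming 0.0512 when only the 2 groups were fitted.

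CREB5 was higher with knockdown and lower with dex in HEK293-GR. It measured 3.36, 3.36 and 4.16 FPKM with siNON and vehicle, 1.10, 1.15 and 1.17 with siNON and dex, 5.50, 6.38 and 5.68 with siIRF2BP2 and vehicle, and 3.12, 3.13 and 3.08 with siIRF2BP2 and dex. The siIRF2BP2 libraries lay above the siNON libraries of the same treatment in all cases. The knockdown change was 0.68 under vehicle and 1.37 ± 0.11 under dex (limma adjusted p = 0.00124 and 1.77e-06).

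FGF2, a growth factor, was higher by 0.77 under vehicle and 1.21 under dex (limma adjusted p = 0.0171 and 4.88e-04), and under vehicle its adjusted p became 0.0826 without siNON vehicle replicate 2. RASSF9 (0.98), ZNF214 (0.91) and LPP (0.63) completed the genes named as higher under vehicle, with adjusted p of at most 0.0141, that of LPP becoming 0.0736 without siNON vehicle replicate 1. Under dex PDE4D, a cyclic AMP phosphodiesterase (1.05), and PRTG (1.02) were higher and FAM65B (-0.92) lower with knockdown.

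In A549 no IRF2BP2 peaks were analysed here, so the HEK293-GR peaks were read against A549 RNA from another cell type. By the authors' deposited table, 423 of the 807 genes had a mean pooled level of at least 0.1 FPKM, and 116 (27.4%) were higher and 23 (5.44%) lower with dex under siNON past a false discovery rate of 0.05, beside 6.3 and 4.57% of 13228 genes. Within 10 kb the authors' deposited table had 34 of 97 higher and 5 lower. Under siIRF2BP2 it had 169 (40.0%) higher and 54 (12.8%) lower with dex, beside 14.6 and 11.5%. IRF2BP2 itself stood in the authors' deposited table at 29.7 pooled FPKM with siNON and 26.3 with siIRF2BP2 under vehicle (log2 change -0.31, false discovery rate 0.013), and at 31.3 and 22.9 under dex (-0.66, false discovery rate 2.48e-07), smaller changes than the -0.84 under vehicle in HEK293-GR. For knockdown under vehicle the authors' deposited table had 77 higher and 118 lower, beside 17.7 and 20.1%, and for knockdown under dex 86 and 107, beside 16.8 and 18.3%. In that table, under vehicle, 18.2% of genes near dex-only peaks were higher and 27.9% lower. The shares were 18.1 and 28.6% near peaks of both lists and 19.8 and 26.1% near vehicle-only peaks. Under dex they were, in the same order, 20.3 and 25.3%, 21.8 and 23.1%, and 21.6 and 26.1%.

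TNF alone left 97 of the 423 genes higher and 47 lower in the authors' deposited table, beside 11.0 and 9.62% of all genes. Higher there were 22.9% of genes near dex-only peaks, 23.9% near peaks of both lists and 24.0% near vehicle-only peaks. Lower were 11.1, 11.3 and 13.4%, so the TNF shares were not particular to dex-only peaks. When dex was added to TNF, 113 of the 423 were higher and 55 lower, beside 9.8 and 8.0%. As shares of members in the authors' deposited table, 26.7% were higher and 13.0% lower with dex in the presence of TNF, and 27.4 and 5.44% without it. The difference between these responses was not tested.

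Of 397 member genes with values in both lines, 104 were higher with dex under siNON in HEK293-GR by limma and 111 in A549 by the authors' deposited table, and 53 in both, which is 51.0% of the first and 47.7% of the second. Over all 12104 genes with values in both, 239 were higher in both, 18.5% and 30.6% of the lists of 1295 and 781. Of 49 members lower in HEK293-GR by limma, 11 (22.4%) were lower and 9 higher in A549 by the authors' deposited table, while 1 of the 104 members higher in HEK293-GR was lower there. Over all genes 12.7% of 1066 were lower in both and 84 were higher in A549, and 56 of the 1295 were lower there. Among the 53 members higher in both lines were FKBP5, PER1, DUSP1, KLF15, PDK4, ERRFI1, TFCP2L1, RHOU, FOXO3 and BIRC3. In the authors' deposited table FKBP5 rose by 4.12 on the log2 scale with dex (0.185 to 3.07 pooled FPKM), TFCP2L1 by 4.27 (0.116 to 2.24), ERRFI1 by 2.44 and PDK4 by 1.56. Some leading members of HEK293-GR were not higher there: CNKSR3 stood at 0.116 and 0.104 pooled FPKM, TMEM91 at 0.813 and 0.816, and TRIB1, which fell in HEK293-GR, was higher by 0.42 in the authors' deposited table. HES1 and CREB5 were lower with dex in both lines, by -0.79 and -1.31 in the authors' deposited table. With knockdown CREB5 was lower in that A549 table, by -1.99 under vehicle and -2.46 under dex (false discovery rates 2.88e-47 and 2.94e-25). Its direction was opposite to HEK293-GR, at 0.154 and 0.042 pooled FPKM with siNON and siIRF2BP2 under vehicle. FGF2 was likewise lower there under vehicle (-0.37), while LLGL2 was lower with knockdown in both lines (-0.97 under vehicle in A549).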

How the data were processed

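Per the labels and the series text, IRF2BP2 chromatin immunoprecipitation in HEK293-GR gave 1 peak list per condition on hg19, and RNA was sequenced as polyA libraries. Per the submitters' processing notes the tools included Trimmomatic 0.33, Bowtie 0.12.9, TopHat2 and HOMER 4.10.3; which made which file, and how the ChIP replicates were combined, is not given in the sources used here. The deposited HEK293-GR table holds the authors' FPKM per transcript. The deposited A549 table holds pooled FPKM and the authors' log2 fold changes with p-values adjusted as false discovery rates. The FPKM came out as whole reads for 100.0% of the low values checked, which gave the tags per library. The tolerance was 0.01 of a read beyond the rounding of the listed FPKM.

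Peaks of both lists are those sharing at least 1 base, and each peak was given the nearest TSS by its centre, among all transcripts of the A549 table. For HEK293-GR, log2(FPKM + 0.1) of genes with at least 10 reads in 3 libraries was fitted with limma 3.58.1 (R 4.3.3; trend, all 12 libraries, 8 degrees of freedom for the spread of 4 groups) and Benjamini-Hochberg adjustment over all genes at 0.05; the fit was tested on simulated data. Fold changes are on this scale and understate those of low genes. Strand of counting is not given in the sources used here, so overlapping and antisense genes are uncertain.

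Members and gene lists were chosen with earlier results of these data known. Named genes are, among those within 100 kb of a dex-only peak, the 10 largest rises and falls with dex under siNON and the 5 largest of each other comparison, with mean FPKM of at least 1 in the higher group, no overlap between libraries and non-coding names left out, plus the 5 smallest p of the difference, the genes with most peaks and the GR list; GREB1, LINC00886, KLF7, SLC25A45, PHACTR4 and members of other lists are named besides. A gene that this rule picks is not reported here. Alternatives were another pseudocount, no filter, median-of-ratios scaling, a replicate block, only the groups compared, libraries left out, other peak and TSS rules, and, chosen after seeing the data, the authors' own comparisons.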

Additional observations from a re-analysis of the deposited data

How the results depend on the processing

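The number of dex-only peaks was 911 when a vehicle peak within 500 bases counted as shared and 926 when only an overlap of 50% of both peaks did, and the share within 1 kb of a TSS ran from 2.73 to 2.96%. Counts of members called kept within 1.5 times of the reported ones with no filter, with median-of-ratios scaling and with the nearest expressed gene. A pseudocount of 1 also kept them, except for the difference of responses, where 1 member (FAM65B) was lower. With a replicate block the dex response with siNON had 145 members higher and 80 lower, and the block moved no count past 1.5 times. Pairing of the libraries by replicate number was not seen in these values. Deviations from the group mean correlated at -0.377 to 0.261 between same-numbered libraries of different groups. Between differently numbered ones they correlated at -0.477 to 0.572, the highest for siNON vehicle replicate 3 with siIRF2BP2 vehicle replicate 2. By these deviations 2 of 12 libraries correlated best with their own number. The libraries of a group themselves correlated at 0.988 to 0.996.

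Restricting to peaks within 10 kb left 60 higher and 6 lower with dex under siNON, 49 and 3 under siIRF2BP2, 9 and 11 with knockdown under vehicle and 30 and 23 under dex, of 127 genes in place of 586. With only the groups compared, knockdown under vehicle gave 10 higher and 12 lower. The authors' deposited comparisons, tried after seeing the data, gave 23 and 23 there, and 124 lower with knockdown under dex, where the cause was not tested; for the dex responses they gave 138 and 91 with siNON and 121 and 66 with siIRF2BP2.

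Leaving out 1 library at a time gave 127 to 164 higher and 72 to 103 lower with dex under siNON, and 100 to 138 and 39 to 69 under siIRF2BP2. Knockdown gave 34 to 129 and 18 to 64 under vehicle and 111 to 190 and 58 to 100 under dex. The difference of responses gave 0 higher throughout and 0 to 1 lower, the 1 being MSX2 without siNON vehicle replicate 1. Of 74 results for named genes, 8 changed side of the threshold in some setting and none changed direction: EFNA5, SORBS2 and GADD45B with dex under siNON, FGF2, LPP and PITPNM2 with knockdown under vehicle, and FAM65B and MSX2 in the difference. Genes with few reads were left out by the filter, and 1 peak list per condition sets the limit for every statement on presence or absence of a peak.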
